A study of Homo sapiens with 4 samples.

Results

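The genes described here encode subunits of the ATP-dependent chromatin remodelers outside the CHD family: SWI/SNF, ISWI, the INO80 family, and 4 single SNF2-type enzymes. They were chosen by name from a list of 41 symbols, and a gene was measured where a feature of the array was annotated to that gene alone. This gave 40 genes of the 18334 tested, with 90 features, and SMARCD2 was not analysed here. The study compared HEK293T cells, a human embryonic kidney line carrying SV40 large T antigen, after transfection with plasmids that express an siRNA against CHD6 or a control siRNA. RNA was taken 48 h after transfection, and each of 4 arrays of 2 colours set a CHD6 siRNA sample directly against a control sample. Dyes were swapped between arrays: RNA of CHD6 siRNA cells was labelled with Cy3 for replicates 1 and 3, and with Hy5 for replicates 2 and 4. The cells were transfected populations, not clones, and the share of cells that took up plasmid is not given in the sources used here. Whether the replicates were separate cultures is not stated either, so the p-values cover array-to-array spread that may be only technical. Except where stated, the fit took out the dye difference, so its p-values rest on spread between arrays of the same labelling. That spread was pooled in part over all genes, so a p-value does not measure the spread of its own gene alone. In the main fit no gene had a standard error below 0.065. The SD printed beside a mean still holds the dye difference.

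Chromatin remodelers use ATP to slide, eject or exchange nucleosomes. Each pairs a SNF2-type motor with accessory subunits that set where and how it acts. SWI/SNF complexes (canonical BAF, PBAF and non-canonical BAF) open chromatin at enhancers and promoters, and ISWI complexes space nucleosomes. The INO80 family (INO80, SRCAP and EP400 complexes) slides nucleosomes and exchanges histone H2A.Z. CHD6, the target of the siRNA, is a motor of the separate CHD family, and the comparison shows how transcripts of the other remodelers stood after the siRNA against it.

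The values were log2 ratios, with the base taken as 2, and were read as CHD6 siRNA over control. This direction is likely and not settled, since it rests on the order of names in the array titles and on CHD6 itself. CHD6 had 3 features. The first was at -1.13, -1.21, -0.85 and -1.42 on replicates 1 to 4, below 0 in both dye orientations, and passed the test (mean -1.15 ± 0.24, SD, n = 4; limma over features, adjusted p = 0.0168; 0.0383% of the features naming 1 gene passed). The others had means of -0.17 and -0.015 and did not pass (adjusted p = 0.760 and 0.982), and the average of all 3 was -0.45 ± 0.15 (SD, n = 4; limma over genes, adjusted p = 0.134). Most variation followed the labelling. Pearson's r over features was 0.80 and 0.79 for pairs with the same labelling, and -0.84 to -0.68 for pairs with opposite labelling. With columns taken as CHD6 siRNA over control, this is a dye difference. The mean over the 4 arrays balances both orientations. The dye coefficient, which is the mean of the Hy5 arrays minus that of the Cy3 arrays divided by 2, would be the siRNA difference if the columns were Hy5 over Cy3. Both quantities are therefore plotted for the remodeler genes. In numbers, the mean is given for each of these genes. The dye coefficient is given for those where it passed the test or differed in sign from the mean. Ratios carry no level, so neither expression of a subunit nor the identity of the cell line could be checked. Of 12 markers of other cell types 11 were measured, with means from -0.115 to 0.068, and none passed the test (limma, smallest adjusted p = 0.665; 0 had an unadjusted p under 0.05).

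Read as CHD6 siRNA over control, none of the 40 remodeler genes passed the test, and their mean log ratios were small. They ran from -0.26 for ARID2 to 0.37 for BAZ1A, with a median of -0.020 against -0.0025 over all genes. Of the 40, 14 had a mean above 0 and 26 below, where all 18334 genes had 9027 above and 9307 below. This baseline also holds for the splits by complex below, and none of these splits was tested. limma with dye orientation in the fit called 0 of the 40, and 4 of all 18334 genes (0.0218%). An unadjusted p under 0.05 was found for 4 members, 10.0% of them, against 9.37% of all genes. BAZ1A and SMARCD3 were the 2 with means above 0 (4.97% of all genes met this), and ARID2 and SMARCAD1 the 2 with means below 0 (4.4% of all genes). Without the dye term limma called 0 genes, and 0 members had an unadjusted p under 0.05 (1.32% of all genes).

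The intervals give a range for each gene average under this reading. All 40 of the 95% intervals lay inside a log ratio of -1 to 1, a 2-fold ratio either way. So did those of 18327 of all 18334 genes. Of the members, 39 lay inside -0.5 to 0.5, as did 17829 of all genes. The exception was BAZ1A, whose interval ran from 0.20 to 0.55. The lowest bound was -0.44, for ARID2, a ratio of 0.738. The small number of arrays limits the precision of these intervals. They rest in part on variance pooled over all genes and are not corrected for the number of genes. They also cover averages that can join unlike features, so a larger difference in 1 feature is not excluded. The interval of the CHD6 average was -0.62 to -0.28, while its first feature had a mean of -1.15.

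**Figure D1:**
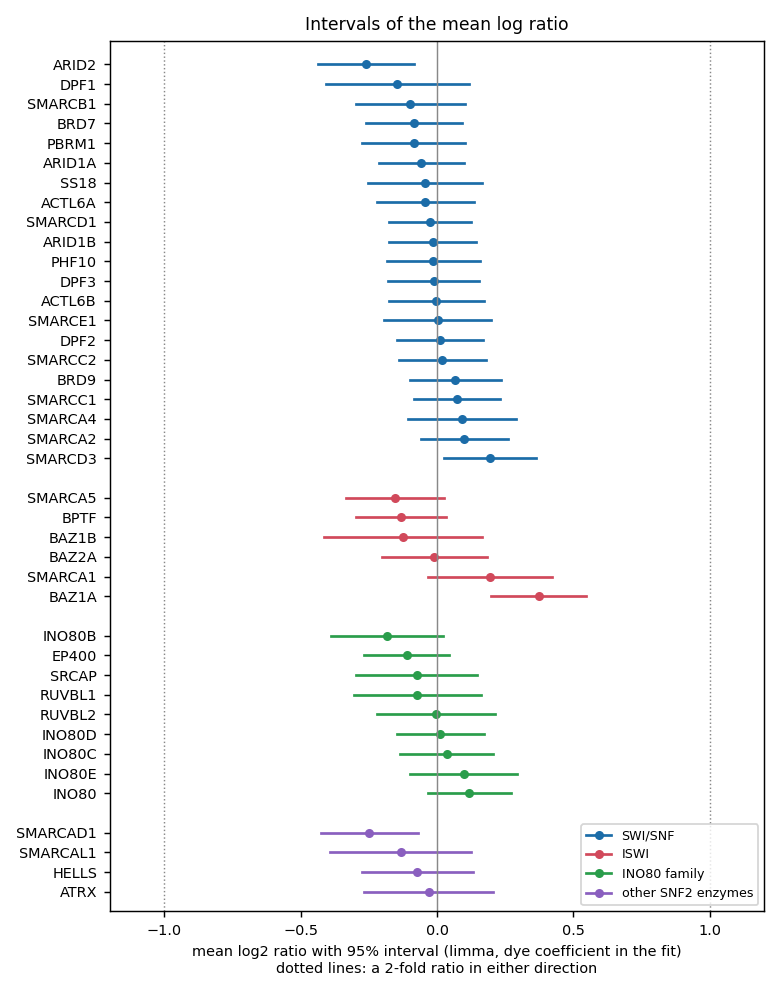
Mean log2 ratio of each remodeler gene over 4 arrays (points) with its 95% interval from limma with dye orientation in the fit (lines), coloured by complex. Dotted lines mark a 2-fold ratio. All 40 intervals lie between them, as do those of 18327 of all 18334 genes, and the interval of BAZ1A, from 0.20 to 0.55, reaches furthest from 0.

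Few members kept 1 sign on all arrays. SMARCA2 and INO80 were above 0 on all 4 (3.56% of all genes were), and ARID2 was below 0 on all 4 (3.5% of all genes were). For such a gene an exact sign-flip test gives a two-sided p of 0.125, the smallest that 4 arrays allow. These are signs of averages over features. No INO80 feature kept 1 sign: they were at -0.09, 0.14, -0.12, 0.29 and at 0.46, -0.11, 0.56, -0.18. Nor did an ARID2 feature stay below 0: they were at -0.70, 0.00, -0.61, -0.26 and at 0.64, -0.55, 0.18, -0.79. Of the SMARCA2 features, only that at 0.18, 0.30, 0.09 and 0.05 stayed above 0. SMARCAD1 was below 0 on 3 arrays and had 10 features in close accord. These share 1 annotated transcript and could be repeats of a single probe, so their accord may not be independent. The promoters of SMARCAD1, SMARCA2 and INO80 are shown as the sequence context of these genes. RefSeq windows (GRCh38.p14) matched 33 of the 40 members, and BAZ1A and ARID2 were not among them. Each run is the 250 bases before the outermost annotated start, 5′ to 3′ on the strand of the gene. Capitals mark matches, on either strand, to the GC box GGGCGG, the CCAAT box, the TATA box TATAAA, the cyclic AMP response element core TGACG, or the ETS core CCGGAA.
SMARCAD1, chr4:94207358-94207607, plus strand: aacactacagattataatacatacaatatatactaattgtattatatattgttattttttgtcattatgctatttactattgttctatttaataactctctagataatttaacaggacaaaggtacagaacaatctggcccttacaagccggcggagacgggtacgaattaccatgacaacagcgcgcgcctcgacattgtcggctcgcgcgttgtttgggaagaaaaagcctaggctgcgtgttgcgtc
SMARCA2, chr9:2015097-2015346, plus strand: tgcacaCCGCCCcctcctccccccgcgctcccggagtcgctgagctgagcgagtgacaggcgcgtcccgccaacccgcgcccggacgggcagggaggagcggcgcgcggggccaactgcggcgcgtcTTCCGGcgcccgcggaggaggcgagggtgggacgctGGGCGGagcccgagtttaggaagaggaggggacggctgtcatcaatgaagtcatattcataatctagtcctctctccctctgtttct
INO80, chr15:41116281-41116530, minus strand: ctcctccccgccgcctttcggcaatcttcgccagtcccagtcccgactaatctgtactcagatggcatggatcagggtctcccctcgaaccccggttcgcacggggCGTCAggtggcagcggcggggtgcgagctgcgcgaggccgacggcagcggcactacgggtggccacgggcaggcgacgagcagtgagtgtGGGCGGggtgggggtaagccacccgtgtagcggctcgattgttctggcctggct
The SMARCA2 window held 2 GC boxes and 1 ETS core, none overlapping, and the INO80 window held 1 GC box and 1 TGACG. The SMARCAD1 window held none of the 5 strings. Over 35116 promoter windows of the same length, the GC box was found in 42.6%, the CCAAT box in 32.0%, the TATA box in 10.7%, the cyclic AMP core in 21.2% and the ETS core in 14.5%. The SMARCAD1 window was 39.2% G or C with 14 CG pairs, against 68.8% and 29 for SMARCA2 and 68.4% and 26 for INO80. The median window was 58.0% G or C and held 11 CG pairs.

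SWI/SNF supplied 21 of the measured genes, 8 with a mean above 0 and 13 below, and a median of -0.013. Its motors are SMARCA2 (BRM) and SMARCA4 (BRG1), which are alternative ATPases of the same complexes. SMARCA2 was at 0.19, 0.12, 0.038 and 0.050 on replicates 1 to 4. All 4 values were small and on the same side of 0 (mean 0.10 ± 0.071, SD, n = 4; limma adjusted p = 0.714). SMARCA4 was at -0.30, 0.18, -0.073 and 0.55. It was below 0 with the siRNA sample in Cy3 and above 0 with it in Hy5, so the orientations did not overlap (mean 0.091 ± 0.37, SD, n = 4; adjusted p = 0.801).

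The core and ATPase-module subunits are shared by several SWI/SNF complexes, and 4 of the 8 had a mean above 0. SMARCD3 (BAF60C), the form of the BAF60 subunit known from heart and muscle, was at -0.36, 0.71, -0.14 and 0.57. It was below 0 on the Cy3 arrays and above 0 on the Hy5 arrays, and its mean of 0.195 ± 0.52 (SD, n = 4) ranked 825 from the top of all genes (adjusted p = 0.469). Its relative SMARCD1 (BAF60A) was at -0.025 ± 0.55 (SD, n = 4). The scaffold pair SMARCC1 (BAF155) and SMARCC2 (BAF170) had means of 0.073 and 0.020. SMARCC2 was at -0.59, 0.61, -0.44 and 0.51, nearly mirror values for the 2 orientations. SMARCB1 (SNF5), the tumour suppressor that contacts the nucleosome acidic patch, had a mean of -0.098. SMARCE1 (BAF57), which carries an HMG domain, was at 0.0025. The actin-related subunits ACTL6A and ACTL6B, the second being the neuronal form, were at -0.043 and -0.0025.

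Subunits grouped here under canonical BAF had a median of -0.029, although SS18 also belongs to non-canonical BAF. Of the 6 measured, 5 had a mean below 0 and none an unadjusted p under 0.05. ARID1A and ARID1B, alternative DNA-binding subunits of BAF, had means of -0.058 and -0.015. The PHD finger protein DPF1 (BAF45B), found mainly in neurons, was the lowest at -0.145, from -0.15, -0.20, -0.60 and 0.37. Its values were below 0 on 3 arrays and above on replicate 4. DPF2 (BAF45D), the widely expressed form, was at -1.01, 0.93, -0.96 and 1.08. The 1.08 was the highest value of any member on a single array, yet the 4 values averaged 0.010 ± 1.15 (SD, n = 4). DPF3 (BAF45C) was at -0.013 and SS18, the partner in synovial sarcoma fusions, at -0.044.

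The 4 subunits that define PBAF all had means below 0, with a median of -0.085. ARID2 (BAF200) had the lowest mean of all 40 members. It was at -0.030, -0.275, -0.215 and -0.525 on replicates 1 to 4. All were below 0, but the first was close to it (mean -0.26 ± 0.20, SD, n = 4; limma adjusted p = 0.353), and it ranked 280 from the lowest of all genes. Its 2 features had means of -0.39 and -0.13. PBRM1 (BAF180), which carries several bromodomains, was at 1.03, -0.96, 0.65 and -1.06, positive on the Cy3 arrays and negative on the Hy5 arrays (mean -0.085). BRD7, another bromodomain subunit of PBAF, was also at -0.085, with -0.32 on replicate 1 and -0.030 to 0.030 on the others. PHF10 (BAF45A) was at 0.73, -0.61, 0.47 and -0.64, with a mean of -0.013. BRD9, which marks non-canonical BAF, was at 0.068.

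**Figure D2:**
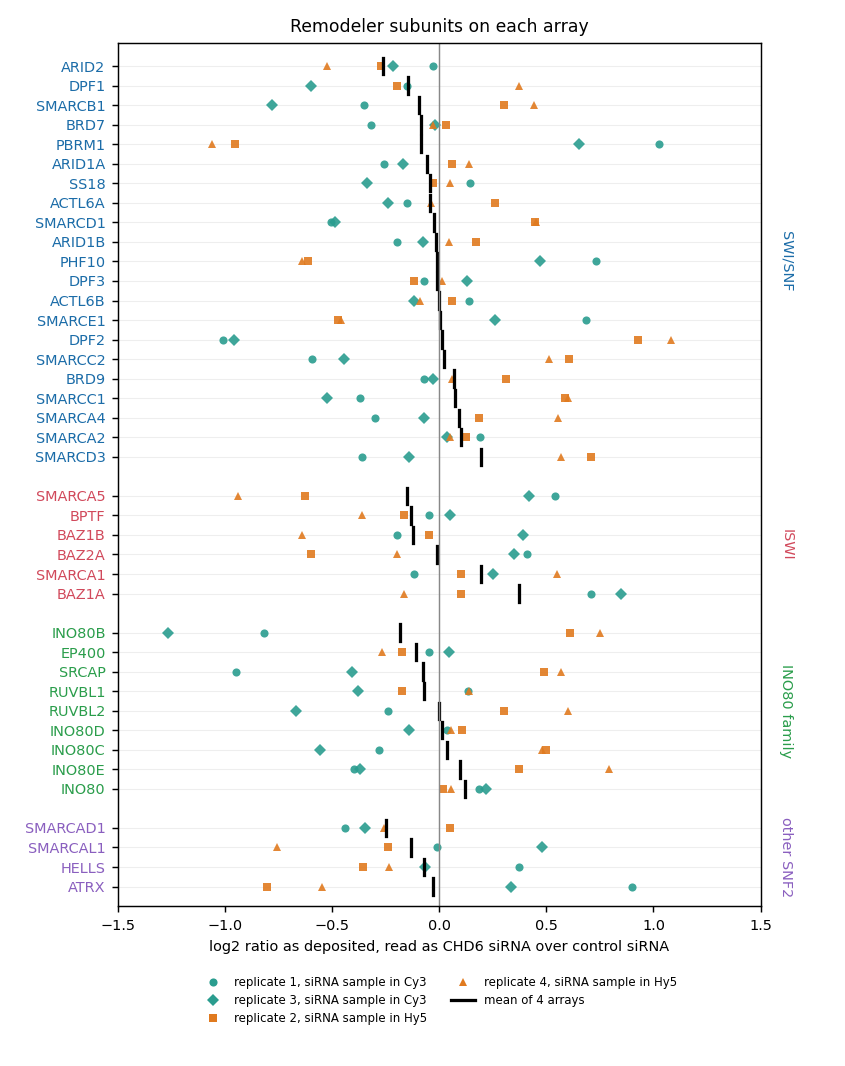
Log2 ratio of each measured remodeler gene on each array, as deposited, grouped by complex (names coloured) and ordered by mean. Green points are replicates 1 and 3 (siRNA sample in Cy3), orange points replicates 2 and 4 (siRNA sample in Hy5), and black bars the means. For DPF2, PBRM1 or INO80B the 2 colours stand on opposite sides of 0, while SMARCA2 and INO80 keep all 4 points above 0 and ARID2 all 4 below.

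ISWI complexes held the member with the largest mean. BAZ1A (ACF1), which pairs with the motor SMARCA5 in the nucleosome-spacing complexes ACF and CHRAC, was at 0.71, 0.10, 0.85 and -0.17. It was above 0 on 3 arrays and below 0 on replicate 4, and it was higher on the Cy3 arrays than on the Hy5 arrays with no overlap. Its mean was 0.37 ± 0.49 (SD, n = 4), a ratio of 1.29, and it ranked 84 from the top of all genes. It did not pass the test (limma adjusted p = 0.202). Its 10 features agreed closely, with means from 0.335 to 0.42. All 10 share 1 annotated transcript and could be repeats of a single probe, so whether they are independent is unknown. With dye in the fit, leaving out 1 array at a time moved its mean between 0.31 and 0.44.

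The 2 ISWI motors stood on either side of 0. SMARCA1 (SNF2L), the motor of NURF, was at -0.12, 0.10, 0.25 and 0.55, above 0 on 3 arrays (mean 0.195 ± 0.28, SD, n = 4; adjusted p = 0.595). SMARCA5 (SNF2H), the motor of ACF, CHRAC, WICH and NoRC, was at 0.54, -0.63, 0.42 and -0.94 (mean -0.15 ± 0.74, SD, n = 4; adjusted p = 0.595). Its sign followed the labelling on every array, and whether the motors differ from each other was not tested. Its features also differed: 1 was below 0 on all 4 arrays, from -0.61 to -0.18, and the other swung between -1.27 and 1.26. Of the partners, the large NURF subunit BPTF was at -0.13. BAZ1B (WSTF) of WICH was at -0.125. BAZ2A (TIP5), which directs NoRC to ribosomal DNA, was at -0.010.

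The INO80 family gave 9 genes, 4 above 0 and 5 below, with a median of -0.0025 and no unadjusted p under 0.05. The motor INO80 was at 0.185, 0.015, 0.22 and 0.055. All 4 were above 0, though replicate 2 barely so (mean 0.12 ± 0.099, SD, n = 4; adjusted p = 0.625). SRCAP, the motor that deposits H2A.Z, was at -0.95, 0.49, -0.41 and 0.57 (mean -0.075 ± 0.73, SD, n = 4; adjusted p = 0.864). EP400, the motor of the complex that also holds the TIP60 acetyltransferase, was at -0.047, -0.18, 0.047 and -0.27 (mean -0.11 ± 0.14, SD, n = 4; adjusted p = 0.668). SRCAP was negative on the Cy3 arrays and positive on the Hy5 arrays, and EP400 was below 0 on 3 arrays.

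The accessory subunits of the INO80 complex had means on both sides of 0. INO80B (IES2), an activator of the motor, was the third lowest member, at -0.82, 0.61, -1.27 and 0.75. Its orientations did not overlap, and its mean was -0.18 ± 1.01 (SD, n = 4; adjusted p = 0.576). INO80C (IES6) had a mean of 0.035, INO80D of 0.013 and INO80E of 0.098. The AAA+ ATPases RUVBL1 and RUVBL2, which form a ring shared by INO80, SRCAP and EP400 complexes, were at -0.072 and -0.0025.

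The 4 single SNF2-type enzymes all had means below 0, with a median of -0.10. SMARCAD1, which acts in DNA end resection and in keeping heterochromatin through replication, was at -0.44, 0.049, -0.35 and -0.26. It was below 0 on all arrays but replicate 2 (mean -0.25 ± 0.21, SD, n = 4; limma adjusted p = 0.368). Its 10 features, annotated to 1 transcript, had means from -0.29 to -0.20. SMARCAL1, which reverses stalled replication forks, was at -0.13. HELLS (LSH), needed for DNA methylation at repeats, was at -0.072. ATRX, which deposits histone H3.3 at telomeres and repeats, was at 0.90, -0.81, 0.34 and -0.55, so that its mean was -0.030.

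The dye coefficient gives the other reading of the same arrays, in which columns are Hy5 over Cy3. limma called it for 20 of the 40 members, or 50.0%, against 44.8% of all genes. It was above 0 for 12 members (26.9% of all genes were called above 0) and below 0 for 8 (18.0%). Under that reading 15 members would be higher and 6 lower in CHD6 siRNA cells on all 4 arrays, where 31.3% and 21.3% of all genes would be. The share called is thus near that of all genes.

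The calls on this coefficient were then counted by complex. In the INO80 family 5 of 9 members were called above 0 and none below, with a median of 0.45 against 0.034 over all genes. These were INO80B (0.86), SRCAP (0.605), INO80E (0.48), INO80C (0.455) and RUVBL2 (0.45). In ISWI 3 of 6 were called below 0 and none above: SMARCA5 (-0.63), BAZ1A (-0.41) and BAZ2A (-0.39). Of the single enzymes ATRX (-0.65) and SMARCAL1 (-0.37) were called below 0. Neither split was tested against other genes.

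SWI/SNF had members called in each direction, 7 above 0 and 3 below. DPF2 had the highest coefficient of any member (0.995, adjusted p = 8.38e-05), followed within SWI/SNF by SMARCC2 (0.54), SMARCC1 (0.52), SMARCD1 (0.47), SMARCB1 (0.47), SMARCD3 (0.445) and SMARCA4 (0.28). Of these, SMARCB1, SMARCC1, SMARCC2, SMARCD1 and SMARCD3 belong to the 8 core and module genes, as does SMARCE1, which was called below 0 (-0.47). PBRM1 had the lowest (-0.92, adjusted p = 0.000139), followed within SWI/SNF by PHF10 (-0.615). PBRM1 and PHF10 are 2 of the 4 PBAF-defining genes. The plot of both quantities shows the members spread far along the dye axis and little along the mean.

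**Figure D3:**
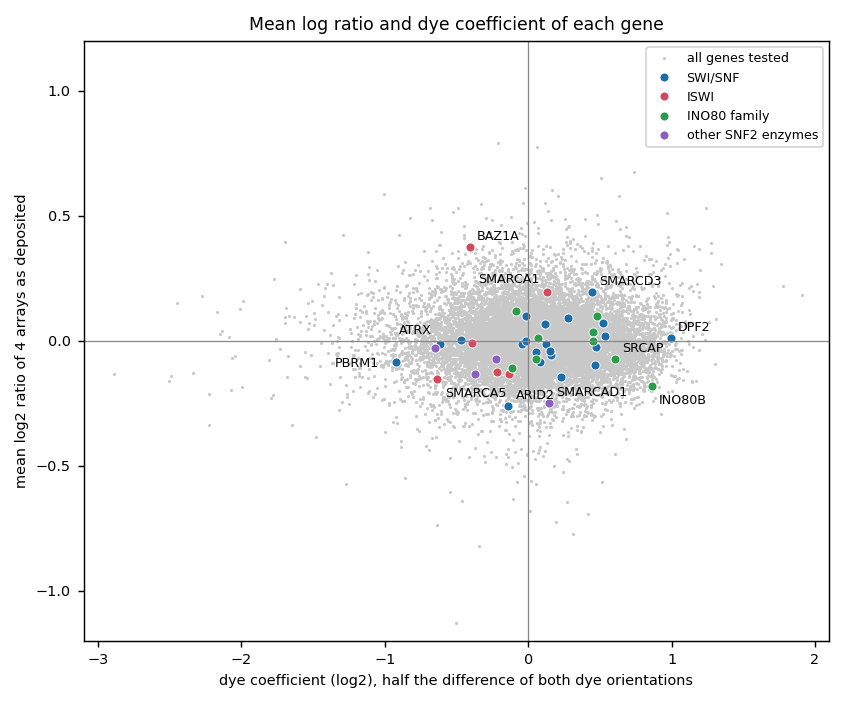
Mean log2 ratio over 4 arrays (vertical axis) against the dye coefficient (horizontal axis) for all 18334 genes (grey) and the remodeler genes by complex (coloured). Members span -0.92 to 0.995 horizontally and -0.26 to 0.37 vertically, inside the cloud of all genes, and the spread over all genes was 0.38 (SD) for the dye coefficient and 0.12 for the mean.

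Features of 1 member often differed on the dye coefficient. The counts of members below were not made over all 7759 genes with several features, so they do not set the members apart. Of 22 members with several features, 10 had coefficients of both signs, and 3 had features called in opposite directions (42.6% of all features naming 1 gene were called in either direction). These were SMARCA2, BPTF and ARID2. SMARCA2 had features at 0.76 and -0.685, and its other features were at 0.020 and -0.15. BPTF had 1 feature at 0.62 and the others at -0.44 and -0.57, and ARID2 had 0.26 and -0.54. A near-zero gene average such as that of SMARCA2 (-0.014) therefore joins unlike features. Averages called on the coefficient could do so too. For ATRX, PHF10, SMARCA4, SMARCA5 and SMARCD1 only some features were called. ATRX had a feature at -1.46 that was called, and features at -0.44 and -0.045 that were not. For BAZ1A, PBRM1, SMARCC1, SMARCC2 and SMARCE1 every feature was called, in the direction of the average. The remaining called members had 1 feature each. Over all genes the mean log ratio varied less than the dye coefficient (SD 0.12 against 0.38). This alone can bring features closer together on the mean, without better agreement. On the mean log ratio the features of a member lay closer together for 20 of the 22, all but EP400 and SMARCE1. For SMARCA2 they ran from -0.040 to 0.24. By this measure 13 of the 22 had features of both signs, and none of the 90 member features passed the test (limma over features naming 1 gene, smallest adjusted p = 0.217; 26 had an unadjusted p under 0.05, or 28.9% against 7.97% of all such features, and 10 of the 26 were features of BAZ1A and 10 of SMARCAD1).

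**Figure D4:**
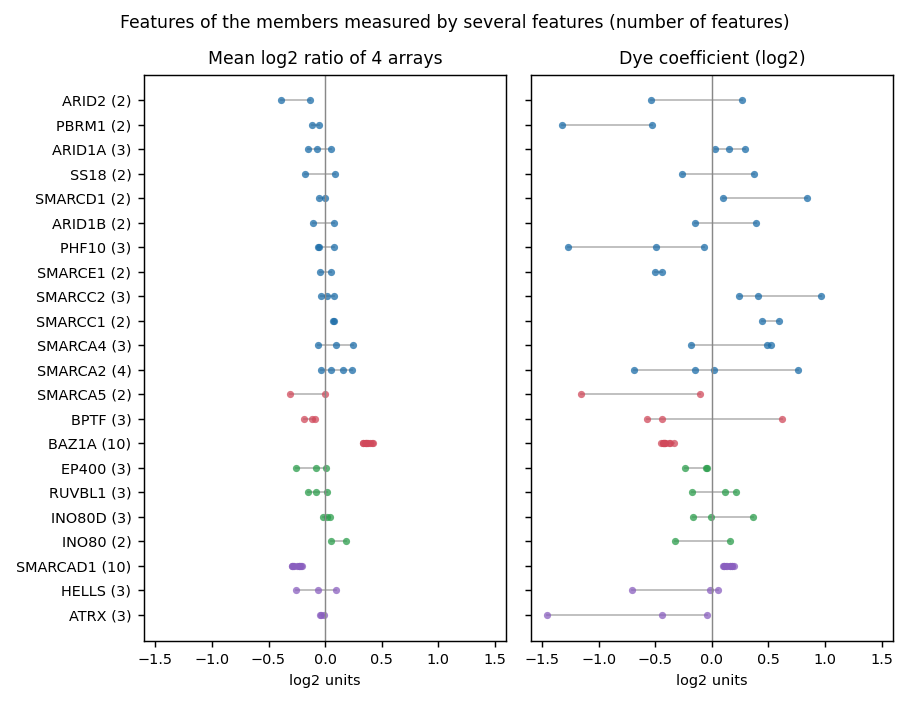
Each point is 1 feature of a member measured by several features (number in parentheses), with the mean log2 ratio over 4 arrays on the left and the dye coefficient on the right, on the same scale and coloured by complex. The 10 features of BAZ1A lie between 0.335 and 0.42 on the left, while those of SMARCA2 range from -0.685 to 0.76 on the right.

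No further remodeler gene passed the test either. Of 49 further subunits and partners 48 were measured, with a median mean of -0.025, and limma called 0 of them (smallest adjusted p = 0.285; 4 had an unadjusted p under 0.05, or 8.33% against 9.37% of all genes). BICRAL, a scaffold of non-canonical BAF, was lowest, at -0.75, -0.305, -0.090 and -0.815 (mean -0.49 ± 0.35, SD, n = 4). CHRAC1, the histone-fold partner of BAZ1A and SMARCA5 in CHRAC, was at -0.23, below 0 on all 4 arrays. EPC2, a scaffold of the TIP60 complex, was at 0.29 and ERCC6, the SNF2-type enzyme of transcription-coupled repair, at 0.20. ERCC6 was above 0 on all 4 arrays, whereas EPC2 was below 0 on the Cy3 arrays. On the dye coefficient 25 of the 48 were called, 14 above 0 and 11 below, or 52.1% against 44.8% of all genes (26.9% above 0 and 18.0% below).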

How the data were processed

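The authors deposited 1 column of log2 ratios per array (2 decimals, 45220 features, 0 missing values, 0 unused columns). They were read as log2, since the SD of a column is then a 1.36-fold to 1.43-fold ratio. Not given in the sources used here: scanner software, background correction, normalization and the direction of the columns. No intensities were used, which leaves each feature's signal against background unknown, and control spots stayed in.

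Features naming 1 gene in the platform annotation (31332) were averaged per gene, giving 18334 genes. limma 3.58.1 in R 4.3.3 fitted the mean log ratio with dye orientation as a second coefficient, using eBayes, and p-values were adjusted by Benjamini-Hochberg across all genes, with a threshold of 0.05. Members, gene lists, model and naming rule (the 5 highest and 5 lowest means, the 4 highest and 4 lowest dye coefficients, genes of 1 sign on all arrays, motors and BAZ1A) were chosen with earlier results of these data known. Alternatives were no dye term, columns turned by dye, the median of features, median centring, quantile normalization, features fitted singly, and leaving out each replicate.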

Additional observations from a re-analysis of the deposited data

How the results depend on the processing

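With columns as deposited, limma called 0 of the 40 members under every alternative run. Over all genes the main count was 4, all lower. It was 0 without the dye term, 8 with the median of features (2 higher, 6 lower), 7 with columns centred on their medians (1 higher, 6 lower), 12 of the features fitted singly, 4 with quantile normalization and 0 in each fit without 1 replicate. Turned by dye it was 8219 (4927 higher, 3292 lower), or 7700 with no dye term, a fit added after the data were seen. Members called were then 20 and 19. The dye coefficient was called for 16 to 21 members with columns as deposited, for 0 with columns turned, where it is the mean as deposited, and for 48 of 90 features fitted singly (42.6% of all such features were called).

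The median of the members turned from -0.020 to 0.075 by dye, and that of the INO80 family from -0.0025 to 0.45. The ISWI median was 0.336 over single features, of which BAZ1A supplies 10. Turned by dye, with or without a dye term, 17 members changed sign: SMARCA2 -0.014, SMARCAD1 0.144, SMARCB1 0.47, SMARCD1 0.47, SMARCE1 -0.47, ARID1A 0.16, ARID1B 0.12, BRD7 0.085, DPF1 0.23, ACTL6A 0.15, SS18 0.054, INO80 -0.084, INO80B 0.86, RUVBL1 0.052, RUVBL2 0.45, SRCAP 0.605, BAZ1A -0.41. The median of features gave SMARCC2 -0.0175 and HELLS 0.0275, and quantile normalization gave SMARCE1 -0.0056 and DPF2 -0.0050. Leaving out 1 replicate turned the sign of 22 members, whose means over all arrays ran from -0.125 for BAZ1B to 0.0975 for INO80E. The ranges were ACTL6A -0.12 to 0.033, ACTL6B -0.068 to 0.062, ARID1B -0.046 to 0.016, ATRX -0.17 to 0.11, BAZ1B -0.27 to 0.022, BAZ2A -0.11 to 0.09, DPF2 -0.028 to 0.048, DPF3 -0.062 to 0.037, HELLS -0.18 to 0.038, INO80C -0.035 to 0.105, INO80D -0.033 to 0.058, INO80E -0.0075 to 0.20, PBRM1 -0.18 to 0.0088, PHF10 -0.079 to 0.052, RUVBL1 -0.20 to 0.057, RUVBL2 -0.11 to 0.105, SMARCA4 -0.0017 to 0.18, SMARCB1 -0.205 to 0.01, SMARCC2 -0.018 to 0.058, SMARCE1 -0.10 to 0.11, SRCAP -0.21 to 0.06, SS18 -0.165 to 0.077. The other 18 kept their sign in these fits. With columns turned by dye, the mean is by construction the dye coefficient of the columns as deposited. The cause of the other shifts was not tested. Fits of 3 arrays leave 1 array in 1 orientation. Each log ratio already compares both conditions within 1 array, so no replicate block was added. With few arrays and no intensities, small differences and dim features could not be told from noise.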

Other observations

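The subunits of CHRAC, a nucleosome-spacing complex, differed in the sign of their means. BAZ1A was at 0.37 ± 0.49, SMARCA5 at -0.15 ± 0.74, and the histone-fold proteins CHRAC1 and POLE3 at -0.23 ± 0.17 and 0.115 ± 0.42 (SD, n = 4 each). None passed the test (limma adjusted p = 0.202, 0.595, 0.464 and 0.670). POLE3 was below 0 on the Cy3 arrays and above 0 on the Hy5 arrays, the opposite of BAZ1A's order, and CHRAC1 was below 0 on all 4. These genes were set together after their values were seen.

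A check for 1 array far from the other 3 was run on 45 groups of 4 values, the 40 members and 5 medians. It found 0. The values checked still held the dye difference, which limma called for 20 of the 40 members. The chance figure of about 2.25 is for 4 values without such a difference, so the 0 cannot be set against it. Whether 1 array stood apart once the dye difference is removed was not tested.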
